A study of Mus musculus with 2 samples.

Results

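A set of 10 genes of glucose uptake and glycolysis was followed in heart sections of infarcted newborn mice: the glucose transporters Slc2a1 and Slc2a4, the hexokinases Hk1 and Hk2, the enzymes Aldoa, Gapdh, Pgk1 and Pkm, and the lactate dehydrogenases Ldha and Ldhb. They were chosen by symbol and make up 10 of the 32245 symbols of the deposited feature tables. All 10 had at least 100 UMIs in the sections together. Aldoa has a second row in those tables, which stood at 0 UMIs in both sections, so the 10 symbols stand for 11 rows. The sections were made with Visium, an assay that captures RNA from tissue on an array of barcoded spots and counts molecules by unique molecular identifiers (UMIs). The section of the PD1 KO heart carries PD1 -/- and that of the PD1 Het heart PD1 +/-, and there was 1 of each. Both mice were C57BL/6 and had their left anterior descending artery tied at postnatal day 2, and the hearts were taken 7 days later. Sections of 10 µm were cut 200 µm below the suture, so that neither a wild-type nor an unoperated heart is part of the comparison. The comparison asks how the infarcted newborn heart differs without PD-1, a receptor that restrains T cells.

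Glycolysis turns glucose into pyruvate in the cytosol. Glucose enters through transporters of the Slc2a family, is trapped by hexokinase, split by aldolase, oxidised by glyceraldehyde phosphate dehydrogenase, and yields ATP at phosphoglycerate kinase and pyruvate kinase, after which lactate dehydrogenase interconverts pyruvate and lactate. The heart before and just after birth depends more on glucose and lactate than the adult heart, which burns mainly fatty acids, and several steps exchange a general or fetal form for an adult muscle or heart form: Slc2a1 (GLUT1) for the insulin-responsive Slc2a4 (GLUT4), and Hk1 for Hk2. Ldha encodes the lactate dehydrogenase subunit that prevails in skeletal muscle and Ldhb the one that prevails in the heart. Many glycolytic genes are known targets of the hypoxia-inducible factors (HIF), which bind the core ACGTG.

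Promoters of a few members are shown because their letters bear on the HIF core. The RefSeq table (GRCm38.p6) held windows for 9 of the 10 members, 14 windows in all, and none was used for Slc2a4. Each window runs over 300 bases, from 250 before to 50 after a transcript start, and the 250 bases before the start are printed 5′ to 3′ on the strand of the gene. Slc2a1 lies at chr4:119108495-119108744 on the plus strand, Hk2 at chr6:82774455-82774704 on the minus strand, Ldha at chr7:46845554-46845803 on the plus strand and Ldhb at chr6:142507958-142508207 on the minus strand. Capitals mark ACGTG or its reverse complement CACGT.
Slc2a1: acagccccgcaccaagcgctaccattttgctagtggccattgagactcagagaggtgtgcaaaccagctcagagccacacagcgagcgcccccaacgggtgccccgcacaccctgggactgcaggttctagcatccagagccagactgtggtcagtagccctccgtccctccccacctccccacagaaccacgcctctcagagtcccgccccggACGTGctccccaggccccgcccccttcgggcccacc
Hk2: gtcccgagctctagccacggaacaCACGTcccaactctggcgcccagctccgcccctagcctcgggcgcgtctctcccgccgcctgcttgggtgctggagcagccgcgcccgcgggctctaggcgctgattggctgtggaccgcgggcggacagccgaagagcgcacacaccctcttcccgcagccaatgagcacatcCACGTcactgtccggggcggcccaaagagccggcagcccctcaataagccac
Ldha: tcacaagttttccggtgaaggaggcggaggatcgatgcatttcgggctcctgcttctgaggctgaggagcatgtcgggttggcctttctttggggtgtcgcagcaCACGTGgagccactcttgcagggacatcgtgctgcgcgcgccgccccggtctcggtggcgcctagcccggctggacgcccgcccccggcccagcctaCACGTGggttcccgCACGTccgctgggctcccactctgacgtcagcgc
Ldhb: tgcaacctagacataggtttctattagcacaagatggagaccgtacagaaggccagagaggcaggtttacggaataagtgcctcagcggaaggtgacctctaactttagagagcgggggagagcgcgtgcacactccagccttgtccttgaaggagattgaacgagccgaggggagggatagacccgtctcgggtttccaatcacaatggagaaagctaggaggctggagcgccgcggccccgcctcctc
The Slc2a1 window held 1 ACGTG or CACGT, the Hk2 window 2, this Ldha window 3 and the Ldhb window 0. At 2 of the 3 Ldha sites the core is part of CACGTG, which reads the same on both strands and was counted as 1 site. Counted over both strands, ACGTG stood in at least 1 window of 8 of the 9 members, against 21.8% of all 27025 genes, some of which, like the members, have several windows. By window it stood in 9 of the members' 14, against 19.6% of all 32851 windows, but a pair of Aldoa windows overlap and hold the same site, so the 15 sites counted are 14 distinct ones. CACGTG stood in a window of 1 member, Ldha, against 8.09% of all genes. The GC content was 65.3% for Slc2a1, 67.3% for Hk2, 67.3% for this Ldha window and 57.3% for Ldhb, against a median of 52.7% over all windows. A match of letters is a description of the sequence and shows no binding.

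The PD1 KO section had 851 of 859 spots with at least 500 UMIs and the PD1 Het section 811 of 812. They held 23520499 UMIs in the PD1 KO section and 12814494 in the PD1 Het section, with a median of 27134 and 15475 UMIs per spot. The mitochondrial share was 15.9% in the PD1 KO section and 25.6% in the PD1 Het section. Pdcd1, the gene of PD-1, had 0 UMIs in both, which checks no label. The labels give no sex: Xist had 1 UMI in the PD1 KO section and 541 in the PD1 Het section, and 4 Y-linked genes had 2900 UMIs together in the PD1 KO section and 1 in the PD1 Het section, so genotype, sex, section and depth cannot be told apart. The sections share 225 spot barcodes, which name positions on the array and not cells. With 1 section per group there is no replicate check and no test, and every interval below is a 95% interval for counting error only. Levels are in CPM, UMIs of a gene scaled to the UMIs of its section. The median gene of the 11455 genes with at least 100 UMIs lay at a log2 CPM ratio of 0.33, or 1.26-fold, PD1 KO over PD1 Het. A log2 ratio called relative has this value subtracted, and 1.5-fold is the size from which a member is counted.

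The 10 genes took nearly the same small share of the UMIs in both sections, but the transporter Slc2a1 and the hexokinase Hk2 differed most between them. Together they made up 0.706% of the UMIs in the PD1 KO section and 0.686% in the PD1 Het section, a log2 CPM ratio of 0.04 (0.03 to 0.05) and a relative one of -0.29 (-0.30 to -0.28). Slc2a1 and Hk2 passed 1.5-fold over the median gene, 2 of 10 members against 5.50% of all genes tested, and 0 lay as far below it, against 3.30% of all genes. By CPM 8 of the 10 lay higher in the PD1 KO section, like 85.4% of all genes, and the same 2 were at least 1.5-fold higher, against 22.5% of all genes; 0 were 1.5-fold lower, against 0.681%. The median relative ratio of the members was -0.16, while the quartiles of all genes were -0.22 and 0.23. The 437 non-mitochondrial genes with at least 10000 UMIs had a median relative ratio of -0.20, and the 6 enzymes from Aldoa to Ldhb, all above 10000 UMIs, ranged over -0.53 to -0.11. In bulk sums of spots, fewer cells of a type and less RNA per cell cannot be told apart.

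**Figure D1:**
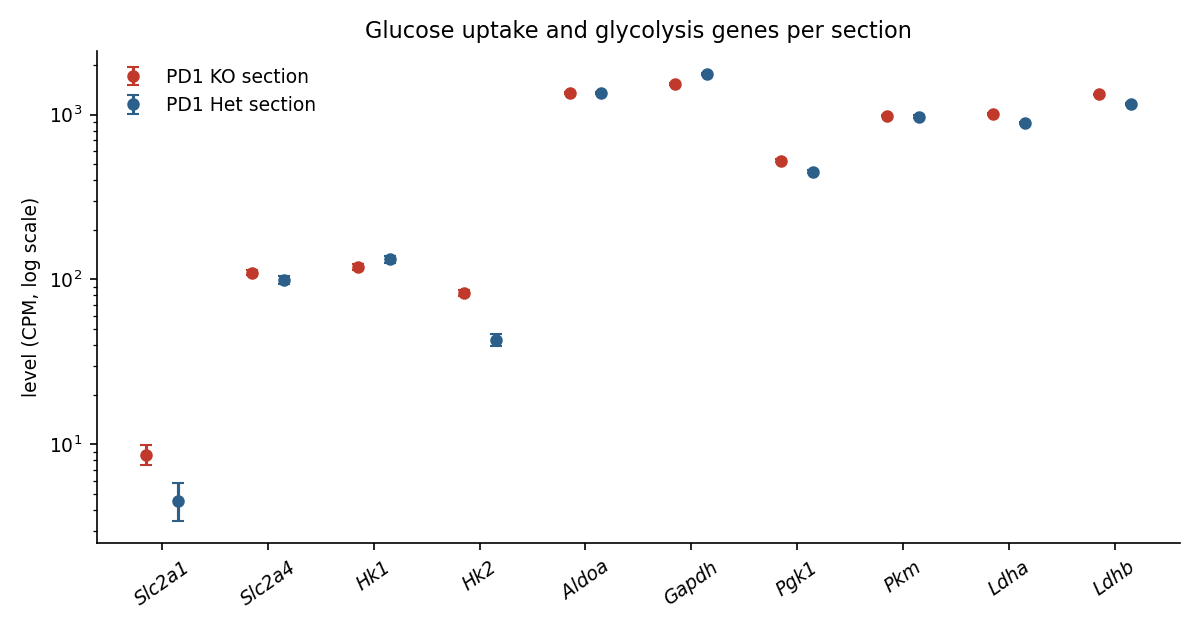
Level of each of the 10 genes in CPM on a log axis, with the PD1 KO section in red on the left and the PD1 Het section in blue on the right of each pair. Bars are 95% Poisson intervals, which are smaller than the points for the abundant genes. Hk2 lay at 83.0 CPM in the PD1 KO section and 43.0 CPM in the PD1 Het section, and Slc2a1 at 8.67 and 4.53 CPM, while Aldoa and Pkm nearly coincided.

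Of the transporters, Slc2a1 was the rarest member and differed most by fold together with Hk2. Slc2a1 (ENSMUSG00000028645, chr4:119108711-119137983, plus strand, GRCm38), which carries basal, insulin-independent glucose uptake, had 204 UMIs in the PD1 KO section and 58 in the PD1 Het section, or 8.67 CPM (7.52 to 9.95) and 4.53 CPM (3.44 to 5.85). Its CPM was 1.92-fold higher in the PD1 KO section, and its relative log2 ratio was 0.61 (0.18 to 1.05). After every spot was thinned to 10000 UMIs, 8.22% (6.45 to 10.3) of 839 PD1 KO spots and 4.08% (2.79 to 5.75) of 759 PD1 Het spots held a UMI of Slc2a1. Most spots held none, and the highest single spot had 8 UMIs in the PD1 KO section and 2 in the PD1 Het section. Slc2a4 (ENSMUSG00000018566, chr11:69942539-69948188, minus strand), the transporter that insulin and contraction bring to the surface of muscle cells, stood at 110 CPM (106 to 114) in the PD1 KO section and 99.1 CPM (93.7 to 105) in the PD1 Het section. Its log2 CPM ratio was 0.15 and its relative ratio -0.18 (-0.28 to -0.08), and after thinning it was found in 63.3% of PD1 KO spots and 65.5% of PD1 Het spots. Slc2a4 thus lay above Slc2a1 in both sections, with 2591 UMIs against 204 in the PD1 KO section and 1270 against 58 in the PD1 Het section, although capture at the 3′ end differs between genes and these are not molar ratios.

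The hexokinases differed in opposite directions. Hk2 (ENSMUSG00000000628, chr6:82725025-82774454, minus strand), the insulin-regulated hexokinase of adult muscle and heart, had 1953 UMIs in the PD1 KO section and 551 in the PD1 Het section, or 83.0 CPM (79.4 to 86.8) and 43.0 CPM (39.5 to 46.7). Its CPM was 1.93-fold higher in the PD1 KO section and its relative log2 ratio was 0.62 (0.48 to 0.76). Thinned to 10000 UMIs, 57.2% (53.8 to 60.6) of PD1 KO spots and 34.5% (31.1 to 38.0) of PD1 Het spots held Hk2, so the difference was spread over spots. The highest spot held 9 UMIs in the PD1 KO section and 5 in the PD1 Het section. Hk1 (ENSMUSG00000037012, chr10:62268855-62379908, minus strand), the widely expressed hexokinase, was lower in the PD1 KO section, at 119 CPM (115 to 124) against 132 CPM (126 to 139) in the PD1 Het section. Its log2 CPM ratio was -0.15 (-0.24 to -0.06) and its relative ratio -0.48 (-0.57 to -0.40), which is under 1.5-fold. Hk1os, an antisense gene that overlaps Hk1, had 17 UMIs in the PD1 KO section and 8 in the PD1 Het section. Hk3, a hexokinase of blood cells, had 20 UMIs in the PD1 KO section and 6 in the PD1 Het section, too few to read a difference.

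In the middle of the pathway, Aldoa was nearly equal by CPM, while Gapdh was lower and Pgk1 higher in the PD1 KO section. Aldoa (ENSMUSG00000030695, chr7:126795234-126800751, minus strand), the muscle aldolase, stood at 1351 CPM in the PD1 KO section and 1350 CPM in the PD1 Het section, a relative log2 ratio of -0.33 (-0.36 to -0.30). Gapdh (ENSMUSG00000057666, chr6:125161715-125166467, minus strand), which oxidises glyceraldehyde phosphate, was the most abundant member in both sections, with 1531 CPM (1515 to 1547) in the PD1 KO section against 1763 CPM (1740 to 1786) in the PD1 Het section. It had the lowest ratio of the 10, at -0.20 (-0.23 to -0.18) by CPM and -0.53 (-0.56 to -0.51) relative to the median gene. Pgk1 (ENSMUSG00000062070, chrX:106187100-106203699, plus strand), which makes the first ATP of the pathway and is X-linked, was higher by CPM in the PD1 KO section, at 526 CPM (517 to 535) against 451 CPM (440 to 463) in the PD1 Het section, and lay at -0.11 (-0.16 to -0.07) relative to the median gene. Parts of these transcripts recur in other genes: of the 31-base words in the last 400 bases of their transcripts, 69.4% for Gapdh, 28.1% for Aldoa and 0 for Pgk1 occur in another gene. For Gapdh all of the recurring words occur in 1 or more of 302 pseudogenes. Of all its end words, recurring or not, 62.0% occur in the 6 other genes that were counted as rows of their own. Aldoart1, a retrotransposed copy of Aldoa, had 165 UMIs in the PD1 KO section and 10 in the PD1 Het section, against 31773 and 17301 UMIs of Aldoa, and the Gapdh copy Gm3839 had 18 and 10 UMIs. The counts of Gapdh and Aldoa are therefore uncertain by what such copies could take or give.

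At the end of the pathway both lactate dehydrogenase genes were higher by CPM in the PD1 KO section by a like amount. Pkm (ENSMUSG00000032294, chr9:59656368-59679375, plus strand), the pyruvate kinase of muscle, whose splice forms were counted as 1 row, stood at 988 CPM (975 to 1001) in the PD1 KO section and 972 CPM (955 to 989) in the PD1 Het section. Its relative log2 ratio was -0.31 (-0.34 to -0.28). Ldha (ENSMUSG00000063229, chr7:46841475-46855627, plus strand) stood at 1013 CPM (1000 to 1026) in the PD1 KO section and 891 CPM (874 to 907) in the PD1 Het section, a log2 CPM ratio of 0.19 (0.15 to 0.22) and a relative ratio of -0.15 (-0.18 to -0.11). Ldhb (ENSMUSG00000030246, chr6:142490249-142507957, minus strand) stood at 1327 CPM (1312 to 1342) in the PD1 KO section and 1156 CPM (1137 to 1174) in the PD1 Het section, a log2 CPM ratio of 0.20 (0.17 to 0.23) and a relative ratio of -0.13 (-0.16 to -0.10). Over single spots, Ldha ran from 3.55 through a median of 9.94 to 26.0 UMIs per 10000 in the PD1 KO section, and from 0 through 8.70 to 21.7 in the PD1 Het section. Ldhb ran from 0 through 13.2 to 22.9 UMIs per 10000 in the PD1 KO section, and from 0 through 11.3 to 30.6 in the PD1 Het section, so the ranges of the sections overlapped for both genes. Shares of 29.1% for Ldha, 40.9% for Ldhb and 33.1% for Pkm of the 31-base words in the transcript ends recur in pseudogenes.

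Around the 10 genes, the same pathway was compared in 9 lists with 118 other genes. For every list, the counts past 1.5-fold stand against 5.50% of all genes tested upwards and 3.30% downwards. The other glycolytic enzymes had a median relative ratio of -0.18, close to that of the members, with 0 of 12 genes past 1.5-fold upwards and 2 past it downwards. The 2 were Pgam2, the muscle phosphoglycerate mutase, with 677 CPM in the PD1 KO section and 816 CPM in the PD1 Het section (relative log2 ratio -0.60), and Eno1, the general enolase, with 56.1 and 101 CPM (-1.18). Eno1 is uncertain, since 82.3% of its transcript-end words also occur in Eno1b, which had 233 UMIs in the PD1 KO section and 28 in the PD1 Het section. Eno3, the muscle enolase and the most abundant gene of this list, lay at -0.36 and Tpi1, triose phosphate isomerase, at -0.39. Among the other carriers 1 of 7 lay above and 0 below, with a list median of -0.18. The carrier above was Slc16a3 (MCT4), which exports lactate, with 8.42 CPM in the PD1 KO section and 3.90 CPM in the PD1 Het section, a relative ratio of 0.78 (0.32 to 1.26). Slc16a1 (MCT1), the main lactate carrier of the heart, lay at 0.22 and Bsg, the chaperone of both, at -0.55.

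The step after pyruvate held the highest ratio of all these lists. Of the genes of pyruvate entry into mitochondria, 1 of 13 lay above and 0 below, with a median of 0.09, and that gene was Pdk4, a kinase that switches off pyruvate dehydrogenase, at 2.21. Pdk1, the HIF-induced kinase of the same complex, lay at 0.58 (0.43 to 0.74), just under 1.5-fold, with 65.7 CPM in the PD1 KO section and 34.8 CPM in the PD1 Het section. The subunits Pdha1 and Pdhb lay at 0.31 and -0.09. Of 5 genes that set fructose bisphosphate levels 0 passed 1.5-fold in either direction (median -0.05). Pfkfb2, the heart form of the bifunctional enzyme, lay at 0.47, Tigar, which lowers fructose bisphosphate, at -0.04 and the gluconeogenic Fbp2 at -0.28. Of 13 glycogen genes 0 passed (median 0.00); Pygm and Pygb, the muscle and brain glycogen phosphorylases, lay at 0.29 and -0.05, Pygl at 0.50, and Phkg1 at -1.46 on 31 UMIs in the PD1 KO section and 37 in the PD1 Het section.

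Among regulators of uptake, 1 of 17 genes of Slc2a4 traffic lay above and 0 below, with a median of 0.09. A single gene above in a list of this length is near the 5.50% of all genes tested, here and for the hypoxia list. The gene above was Txnip, which promotes the removal of glucose transporters from the surface, with 666 CPM in the PD1 KO section and 341 CPM in the PD1 Het section, a relative ratio of 0.63 (0.59 to 0.68). Akt1 lay at 0.09 and Aspscr1 (TUG), a tether of Slc2a4 vesicles, at -0.51. Of 15 hypoxia regulators and HIF targets outside glycolysis 1 lay above, Arnt, the partner subunit of the HIF factors, at 0.85 (0.61 to 1.09), and 0 lay below; the median was 0.09. The HIF targets P4ha1 and Higd1a lay on opposite sides, at 0.52 and -0.45, and Epas1, an oxygen-regulated HIF subunit, lay at 0.27. The pentose phosphate and hexosamine genes had a median of -0.22 with 0 of 8 past 1.5-fold; Taldo1 and Pgls lay at -0.02 and -0.29 and Tkt, transketolase, at -0.29. The glycerol phosphate and malate shuttles had a median of 0.04 with 0 of 10 past it, and their most abundant genes Mdh1 and Mdh2, the malate dehydrogenases of cytosol and mitochondria, lay at 0.04 and 0.24, while Got2 lay at -0.37 and Gpd1 at -0.29.

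**Figure D2:**
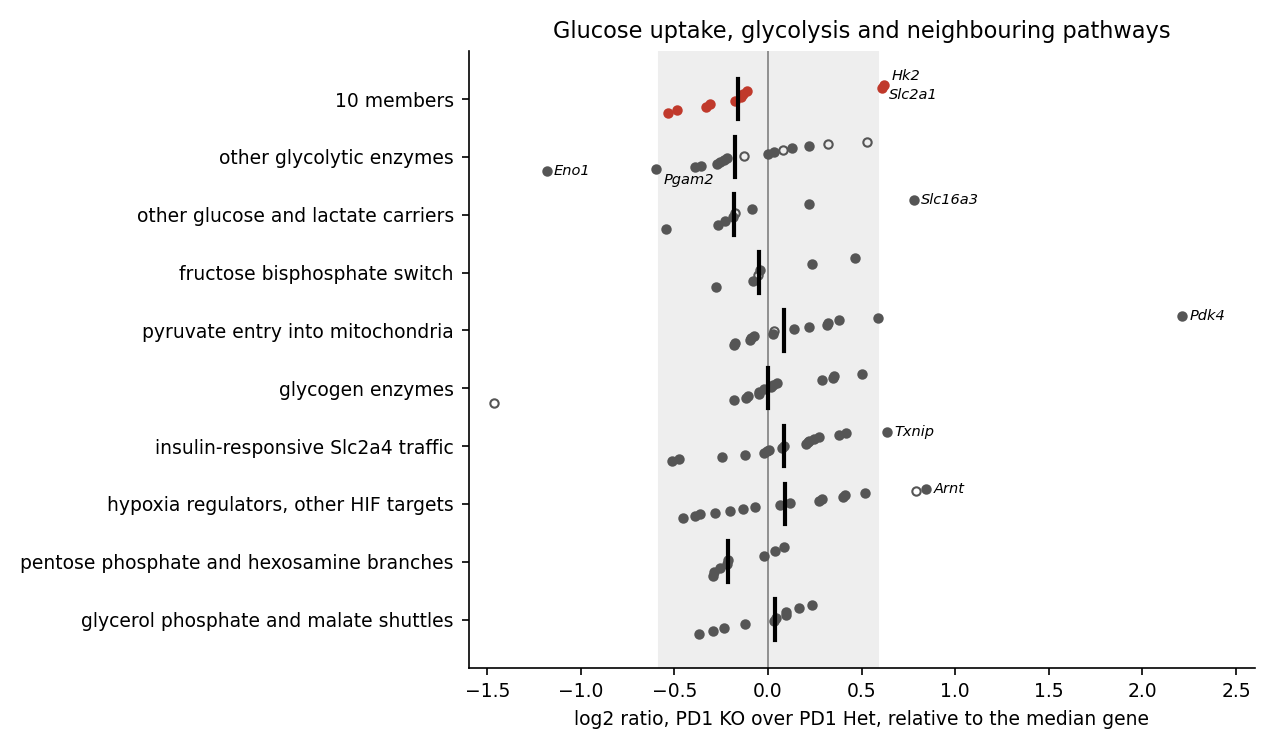
Relative log2 ratio, PD1 KO over PD1 Het, of each gene with at least 10 UMIs, for the 10 members (red) and the 9 neighbouring lists (grey). Filled points are genes with at least 100 UMIs, open points those with fewer, black bars are list medians and the shaded band is under 1.5-fold. Pdk4 stands far to the right at 2.21, and Hk2 and Slc2a1 are the members outside the band.

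Ratios of 2 genes within a section need no scaling between the sections. Slc2a1 to Slc2a4 was 0.0787 in the PD1 KO section and 0.0457 in the PD1 Het section, a log2 ratio of 0.79 (0.35 to 1.22) between the sections. The ratio Hk1 to Hk2 was 1.43 (1.35 to 1.52) in the PD1 KO section against 3.08 (2.80 to 3.39) in the PD1 Het section, which is 2.15-fold lower, or -1.10 (-1.26 to -0.94). By the usual order of these forms, the transporter pair was thus shifted towards the general form and the hexokinase pair towards the adult muscle form in the PD1 KO section. The ratio Ldha to Ldhb was the same within counting error, 0.763 (0.750 to 0.776) in the PD1 KO section and 0.771 (0.752 to 0.790) in the PD1 Het section, with a log2 ratio between them of -0.01 (-0.06 to 0.03). Of the other pairs of general over muscle forms, Pfkp to Pfkm (phosphofructokinases) was 0.219 in the PD1 KO section and 0.188 in the PD1 Het section, and Pgam1 to Pgam2 was 0.159 and 0.124, differences of 0.22 (0.10 to 0.34) and 0.36 (0.26 to 0.47). Eno1 to Eno3 was 0.0446 in the PD1 KO section and 0.0791 in the PD1 Het section, with the doubt on Eno1 given above. Aldoc had 19 UMIs in the PD1 KO section and 9 in the PD1 Het section, too few for a ratio to Aldoa.

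Across spots of different scar matrix share, the members went in different directions. Within a section, spots were ordered by how much of their UMIs came from 18 scar matrix genes, none of them a member, and cut into 5 bins. From bin 1 to bin 5 the matrix share ran from 0.436% to 2.46% in the PD1 KO section and from 0.317% to 1.58% in the PD1 Het section. Slc2a1 was higher in the matrix-rich bin 5 than in the matrix-poor bin 1 in both sections, at 17.0 against 7.06 CPM in the PD1 KO section and 8.52 against 2.56 CPM in the PD1 Het section. These are log2 ratios of 1.27 (0.67 to 1.89) in the PD1 KO section and 1.73 (0.42 to 3.23) in the PD1 Het section, where the bins held 19 and 7 UMIs. Slc2a4 ran the other way in the PD1 KO section, at 79.9 CPM in the matrix-rich against 127 CPM in the matrix-poor bin, a log2 ratio of -0.67 (-0.87 to -0.48), and stood at 88.8 and 101 CPM in the PD1 Het section (-0.18, -0.45 to 0.09). Ldhb was lower in the matrix-rich bin in both sections, at 956 against 1452 CPM in the PD1 KO section (-0.60, -0.66 to -0.55) and 956 against 1234 CPM in the PD1 Het section (-0.37, -0.45 to -0.29). Through the 5 bins it ran 1452, 1418, 1413, 1305 and 956 CPM in the PD1 KO section, and 1234, 1230, 1182, 1141 and 956 CPM in the PD1 Het section, so most of the step lay in the last bin.

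The other members lay under 1.5-fold in both sections. Hk1 was higher in the matrix-rich bin, at 145 against 106 CPM in the PD1 KO section and 151 against 126 CPM in the PD1 Het section, log2 ratios of 0.46 (0.28 to 0.63) and 0.26 (0.04 to 0.48). Without mitochondrial genes in the totals these were 0.34 (0.16 to 0.51) in the PD1 KO section and 0.05 (-0.17 to 0.27) in the PD1 Het section, and with spots ranked from high to low cardiomyocyte markers Hk1 lay at 0.01 (-0.16 to 0.18) and, turned round, at -0.34 (-0.57 to -0.11). Hk2 was lower there, at 71.0 against 88.5 CPM in the PD1 KO section and 40.4 against 50.5 CPM in the PD1 Het section, -0.32 in both, although the interval of the PD1 Het value (-0.72 to 0.07) includes 0. Ldha stood at 1120 against 997 CPM in the PD1 KO section (0.17, 0.11 to 0.23) and at 880 against 884 CPM in the PD1 Het section (-0.01, -0.09 to 0.08). Without mitochondrial genes it lay at 0.05 (-0.01 to 0.11) in the PD1 KO section and -0.22 (-0.31 to -0.14) in the PD1 Het section. Aldoa, Gapdh, Pgk1 and Pkm ranged over -0.21 to 0.07 in the PD1 KO section and -0.09 to -0.03 in the PD1 Het section, or -0.33 to -0.05 and -0.30 to -0.24 without mitochondrial genes. In the PD1 KO section 1 member, Slc2a1, was at least 1.5-fold higher in the matrix-rich bin, against 22.3% of 8457 genes, and 2, Slc2a4 and Ldhb, were as much lower, against 2.26%. These 2 lay under 1.5-fold when 4 bins were used, at -0.55 and -0.51, or when the same matrix limits were set in both sections, at -0.58 and -0.45, and reached -1.22 and -0.90 with 10 bins. In the PD1 Het section 1 was higher, again Slc2a1, against 26.0% of 5300 genes, and 0 were lower, against 0.660%. These shares are over genes with at least 100 UMIs in the end bins. All 10 members reached that minimum in the PD1 KO section and 9 in the PD1 Het section, where Slc2a1 did not. Slc2a1 is thus not among the 5300 genes of the PD1 Het share, and none of the 9 members that are was 1.5-fold higher. The median gene lay at 0.27 in the PD1 KO section and 0.31 in the PD1 Het section, and the members' medians at -0.04 and -0.06.

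**Figure D3:**
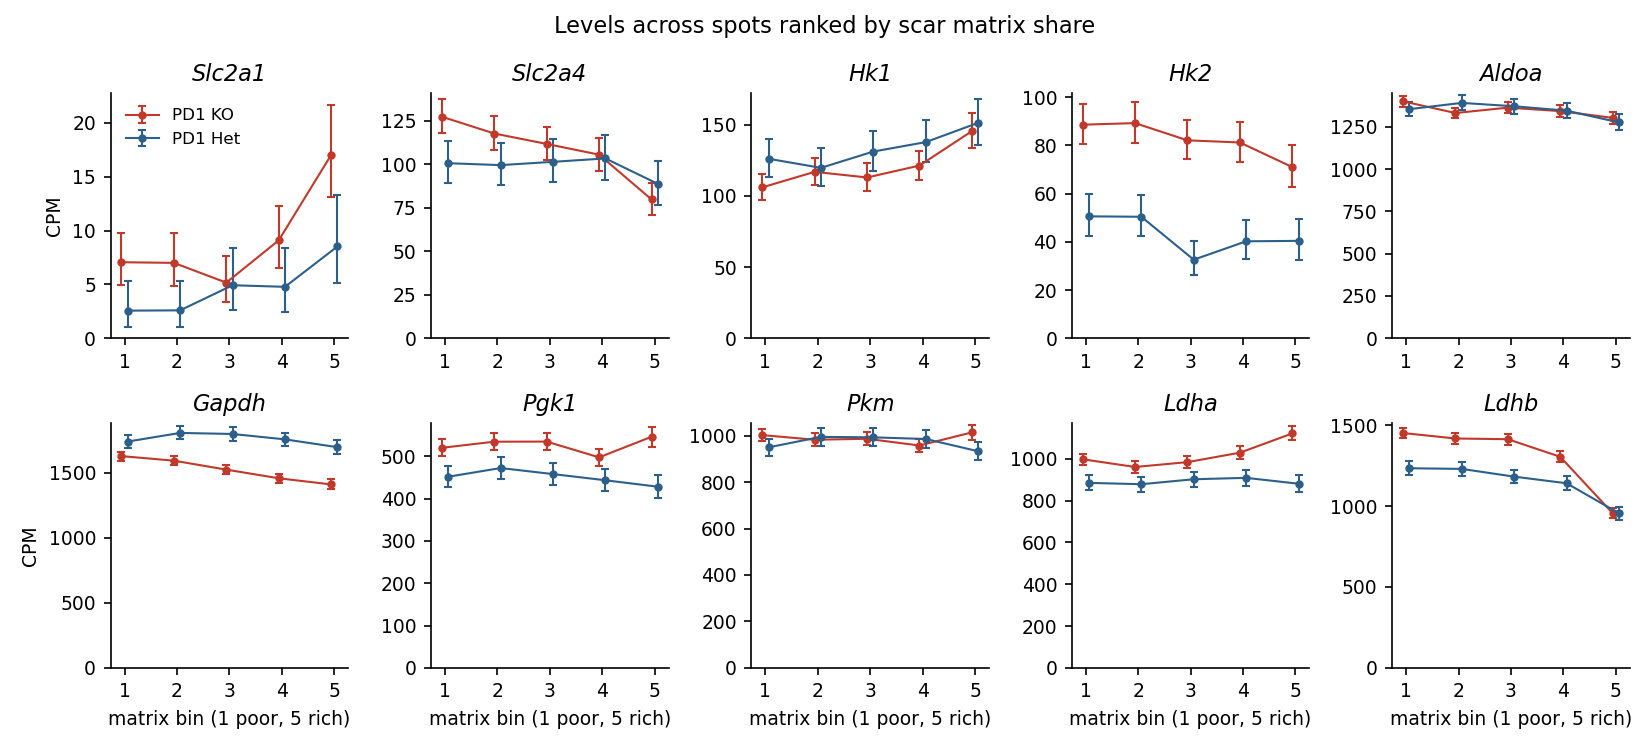
CPM of each of the 10 genes in 5 bins of spots from matrix-poor (1) to matrix-rich (5), with the PD1 KO section in red and the PD1 Het section in blue. Bars are 95% Poisson intervals and every axis starts at 0. Slc2a1 is highest in bin 5 and Ldhb lowest there, at 956 CPM in both sections, while Hk2 lies at 71.0 to 89.2 CPM in the PD1 KO section and 32.6 to 50.5 CPM in the PD1 Het section.

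Within bins of like rank the section difference of Hk2 held in all 5, with relative log2 ratios of 0.48 to 1.02. That of Slc2a1 was above 0 in 4 of 5 bins, over -0.24 to 1.13, on 7 to 19 UMIs a bin in the PD1 Het section. The difference in the Hk1 to Hk2 ratio lay between -1.55 and -0.86 in the 5 bins. The ratio Ldha to Ldhb, equal over whole sections, stood furthest apart in the matrix-rich bin, where it was 1.17 (1.12 to 1.23) in the PD1 KO section and 0.921 (0.866 to 0.979) in the PD1 Het section, a log2 ratio of 0.35 (0.24 to 0.46), while bins 1 to 4 lay between -0.13 and -0.01 and, of these, bin 3 had an interval that excludes 0 (-0.23 to -0.04). Within a section it was 1.71-fold the matrix-poor value in the PD1 KO section (1.17 against 0.687) and 1.29-fold in the PD1 Het section (0.921 against 0.717). Cut into 10 bins, the most matrix-rich bin had 1.60 (1.49 to 1.71) in the PD1 KO section, with 1245 CPM of Ldha and 780 CPM of Ldhb, and 1.03 (0.931 to 1.13) in the PD1 Het section, with 845 CPM of Ldha and 823 CPM of Ldhb. In that bin the matrix share was 3.57% in the PD1 KO section and 2.24% in the PD1 Het section, so equal ranks do not stand for equal matrix. With the same limits in both sections, spots of at least 1% matrix (246 PD1 KO and 131 PD1 Het spots) had a ratio of 1.04 (0.9996 to 1.07) in the PD1 KO section and 0.972 (0.907 to 1.04) in the PD1 Het section, and spots under 0.5% had 0.690 and 0.715. Of the carriers, Slc16a3 was 26.4 CPM in the matrix-rich against 2.86 CPM in the matrix-poor bin in the PD1 KO section, 9.24-fold (log2 3.21, 2.42 to 4.10), and 5.38 against 3.66 CPM in the PD1 Het section, on 12 and 10 UMIs.

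**Figure D4:**
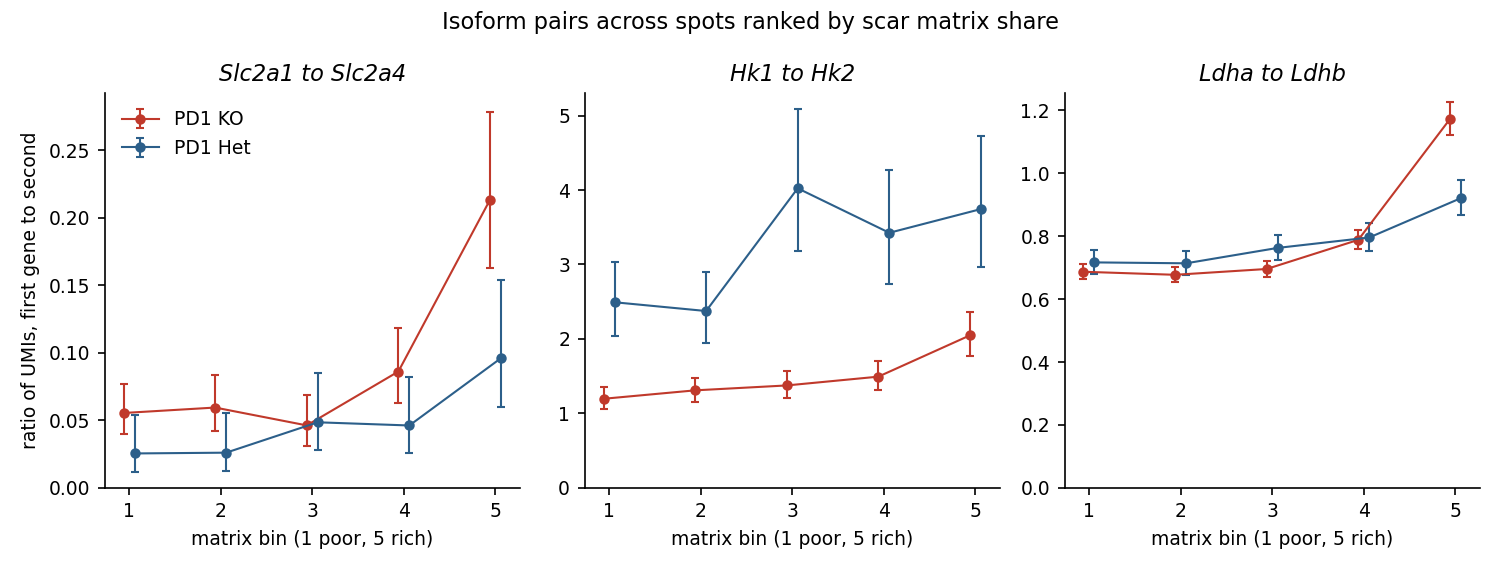
Ratio of UMIs of the first to the second gene of a pair in 5 bins of spots from matrix-poor (1) to matrix-rich (5), with the PD1 KO section in red, the PD1 Het section in blue and 95% intervals for counting error. Hk1 to Hk2 is lower in the PD1 KO section in every bin, and Ldha to Ldhb parts in bin 5 at 1.17 in the PD1 KO section and 0.921 in the PD1 Het section.

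Cell type markers differed along the same ranking, and not all in the same direction in both sections. Red blood cell markers took 1.03% of the UMIs in bin 1 and 0.502% in bin 5 of the PD1 KO section. In the PD1 Het section they stood the other way round, at 0.509% and 1.01%. Endothelial markers took 0.235% and 0.174% in the PD1 KO section and 0.189% and 0.163% in the PD1 Het section. From bin 1 to bin 5, 12 ventricular cardiomyocyte markers took 8.34% to 6.22% of the UMIs in the PD1 KO section and 8.04% to 6.71% in the PD1 Het section. The cardiomyocyte gene Tnni3 alone stood at 3695 CPM in the matrix-rich against 5290 CPM in the matrix-poor bin in the PD1 KO section and at 4962 against 6108 CPM in the PD1 Het section, log2 ratios of -0.52 and -0.30, beside -0.60 and -0.37 for Ldhb. Mitochondrial genes took 18.9% to 11.8% from bin 1 to bin 5 in the PD1 KO section and 30.05% to 18.8% in the PD1 Het section, macrophage markers 0.0180% to 0.0910% and 0.0179% to 0.0510%, and fibroblast markers 0.0950% to 0.296% and 0.0810% to 0.293%. When spots were ranked by cardiomyocyte markers instead, Ldhb in the top over the bottom bin stood at a log2 ratio of 0.75 in the PD1 KO section and 0.68 in the PD1 Het section, and Slc2a4 at 0.83 and 0.52. Slc2a1 stood at -1.61 (-2.31 to -0.95) and -0.65 (-2.01 to 0.62) in that ranking, at 0.80 (0.22 to 1.38) and 1.33 (-0.10 to 2.89) when spots were ranked by fibroblast markers, and at 1.05 (0.42 to 1.71) and 0.62 (-0.75 to 2.05) by macrophage markers. It stood at -0.75 (-1.41 to -0.11) and -0.61 (-1.79 to 0.53) by endothelial markers and at -1.13 (-1.76 to -0.51) and -0.33 (-1.59 to 0.92) by red blood cell markers, and all 5 of these PD1 Het intervals include 0. The part of these cell types in the section and location differences was not tested. Over whole sections, the summed cardiomyocyte markers stood at 78082 CPM in the PD1 KO section and 77639 CPM in the PD1 Het section, red blood cell markers, of cells that carry Slc2a1 in the newborn, at 7856 and 7987 CPM, and macrophage markers at 349 and 267 CPM. The relative log2 ratios of these sums were, in that order, -0.32, -0.36 and 0.05 (-0.01 to 0.11 for the macrophage markers). Of 6 skeletal muscle markers Myh4 and Myh2 were at 0 UMIs in both sections, and of 4 adipocyte markers Adipoq, Cidec and Ucp1 were, which allows up to 3 counts or 0.128 CPM in the PD1 KO section and 0.234 CPM in the PD1 Het section. Of the other genes on the skeletal muscle list, Ckm stood at 1997 CPM in the PD1 KO section and 2049 CPM in the PD1 Het section, and Acta1 at 271 and 108 CPM. Whether UMIs of these 2 genes came from skeletal muscle or from the heart muscle itself was not tested. Tnnt3 had 31 UMIs in the PD1 KO section and 15 in the PD1 Het section, Myh1 3 and 0, and the adipocyte marker Plin1 3 and 1.

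Spot by spot, the members resembled different genes. Likeness was taken as the mean over the sections of Pearson's r of log levels over 851 PD1 KO and 811 PD1 Het spots, against 676 genes with at least 2000 UMIs in each section, and all these values share the spots and their depth. Ldhb was most like Fabp3, the heart fatty acid binding protein (mean r 0.61), Myh6, the adult cardiac myosin (0.60), and Slc25a4, the mitochondrial ADP/ATP carrier (0.59). Aldoa was most like Actc1 (0.40) and Mb (0.39), cardiac actin and myoglobin, and Gapdh like Fabp3 (0.36). Ldha was instead most like Mif (0.23) and the stress genes Ankrd1 (0.22) and Nppa (0.21). Slc2a1 was most like the matrix genes Fn1 (0.21), Sparc (0.20) and Col1a2 (0.20), and Slc2a4 like Cox5a, Myh6 and Tnni3 (0.25, 0.25 and 0.24). The values of Slc2a1 are weak and rest on 204 UMIs in the PD1 KO section and 58 in the PD1 Het section. With Fn1 its r was 0.32 in the PD1 KO section and 0.10 in the PD1 Het section. The closest gene of Hk2 was Slc25a4 (0.17) and of Hk1 Nppa (0.16), weak values in sparse counts. That of Pkm and Pgk1 was Actc1 (0.26 and 0.23), also weak although these 2 genes are abundant. Between the members, Aldoa and Gapdh had r of 0.31 in the PD1 KO section and 0.25 in the PD1 Het section, and Ldha and Ldhb -0.11 and 0.18.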

How the data were processed

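Visium libraries of 1 PD1 KO and 1 PD1 Het heart section were analysed. The deposited values are raw UMI counts of every gene in every spot. Per the file headers, Space Ranger 1.1.0 made them. Builds named by the submitters' processing notes are mm10 and GRCm38; alignment settings and annotation release: not given in the sources used here. Spot positions were not used.

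Rows with the same symbol were summed, only spots with at least 500 UMIs were kept, and their UMIs were summed per section (23520499 in PD1 KO, 12814494 in PD1 Het) and scaled to CPM. Ratios are PD1 KO over PD1 Het with exact conditional 95% intervals; levels have Poisson, shares Clopper-Pearson and pair ratios log-scale Wald intervals. PCR and spots add no replicates, so intervals and the floor of 3 counts cover counting error only. Each group has 1 section, so no test was run; the ratio and interval code was tested on simulated data. The relative ratio subtracts the median gene over 11455 genes with at least 100 UMIs. List medians use genes with at least 10 UMIs.

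The 10 members, the 9 pathway lists, the 18 matrix genes and the markers were chosen with earlier results of these data known. Named are all members, the pair partners, and of each list, among genes with at least 30 UMIs, the 2 of highest UMI count and the 2 whose relative ratio is farthest from 0; Tpi1, Aldoart1, Gm3839, Eno1b, Hk3, Hif1a, Tnni3 and Hk1os were named after their values were seen. The division into 10 bins for pair ratios, the common matrix limits, the rankings by fibroblast, endothelial, macrophage and red blood cell markers and the centring on abundant genes were also added after seeing the data. Of the 32285 feature rows, 32158 had a gene ID of GENCODE vM21 (GRCm38), the source of positions and transcript ends. Tools were Python 3.11.15, numpy 2.4.6, scipy 1.17.1, pandas 2.3.3, matplotlib 3.10.9 and edgeR 4.0.16 (for TMM factors only) in R 4.3.3.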

Additional observations from a re-analysis of the deposited data

Results flagged for a closer look

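Pgk1, Pkm and Ldha were flagged because their matrix-rich over matrix-poor log2 ratio had opposite signs in the sections; the difference between the sections was not tested. Pgk1, the phosphoglycerate kinase, lay at 0.071 (-0.012 to 0.15) in the PD1 KO section and -0.077 (-0.20 to 0.046) in the PD1 Het section. Pkm, the pyruvate kinase, lay at 0.017 (-0.044 to 0.077) in the PD1 KO section and -0.026 (-0.11 to 0.058) in the PD1 Het section. Ldha lay at 0.17 (0.11 to 0.23) in the PD1 KO section and -0.0068 (-0.093 to 0.080) in the PD1 Het section. Of these 6 intervals, which cover counting error only, that of Ldha in the PD1 KO section alone excludes 0. The signs are those of CPM ratios around 0. The median gene lay at 0.27 in the PD1 KO section and 0.31 in the PD1 Het section, and relative to it all 3 genes lay lower in both sections. Without mitochondrial genes, whose share differs between the bins, Ldha lay at 0.048 (-0.011 to 0.11) and -0.22 (-0.31 to -0.14), Pgk1 at -0.050 (-0.13 to 0.033) and -0.29 (-0.42 to -0.17) and Pkm at -0.10 (-0.16 to -0.044) and -0.24 (-0.33 to -0.16) in the PD1 KO and PD1 Het sections, so Ldha alone of the 3 still had opposite signs, and its PD1 KO interval then includes 0.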

How the results depend on the processing

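Slc2a1 and Hk2 were the members at least 1.5-fold above, and 0 were as far below, under each of the other 12 scalings, filters and bin means. The signs of the smaller ratios depend on the scaling: 2 of 10 members were positive relative to the median gene, 8 by CPM without centring, 5 by CPM without mitochondrial genes and 6 when centred on the abundant genes. The members' median of -0.16 became 0.17 by CPM, -0.0093 without mitochondrial genes, -0.10 with the median gene over genes of at least 1000 UMIs and 0.033 centred on genes of at least 10000 UMIs, by the construction of these scalings. At a lower fold limit 3 members lay below, and at 2-fold 0 lay above. Shares of all genes were taken only at 1.5-fold and, for matrix share, with 5 bins. Counts of members at other limits, bins or rankings therefore stand without such a share. The number lower in matrix-rich spots of the PD1 KO section was 0 with 4 bins and 0 with common matrix limits, where Slc2a4 (-0.55 and -0.58) and Ldhb (-0.51 and -0.45) lay under 1.5-fold. With 10 bins 2 members passed upwards in the PD1 KO section, since Hk1 reached 0.64, and 1 was lower in the PD1 Het section, Ldhb at -0.61. With spots ranked by cardiomyocyte markers 2 were lower in the PD1 Het section, Pkm at -0.62 and Ldhb at -0.68; that ranking also turned Hk1 in the PD1 Het section to -0.34 and Pgk1 and Pkm in the PD1 KO section to -0.11 and -0.20; for these bin and ranking settings the cause was not tested. Leaving mitochondrial genes out of the totals changed none of the 4 counts of members past 1.5-fold by matrix share, but lowered every such ratio, by construction: Hk1 in the PD1 Het section (0.05) and Ldha in the PD1 KO section (0.05) then had intervals that include 0, while Slc2a4 (-0.40) and Hk2 (-0.54) in the PD1 Het section had intervals that exclude it, and Pgk1 and Pkm in the PD1 KO section turned to -0.05 and -0.10. The 3 pair ratios stayed within their counting intervals under the 5 alternatives run for them, and those of Slc2a1 to Slc2a4 and Hk1 to Hk2 kept their direction, while Ldha to Ldhb crossed 0, to 0.013 after thinning and 0.013 as a mean over bins. No paired analysis was possible because each group has 1 section, and for the same reason no replicate could be left out. Ranking by an earlier matrix list was not run. Depth limits Slc2a1 most, with 58 UMIs in the PD1 Het section.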

Other observations

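Several pairs of general and muscle forms outside the 10 genes also differed with the matrix share. Pgam1, the general phosphoglycerate mutase, stood at 169 CPM in the matrix-rich against 88.5 CPM in the matrix-poor bin of the PD1 KO section and at 136 against 84.2 CPM in the PD1 Het section, log2 ratios of 0.93 (0.76 to 1.11) and 0.69 (0.44 to 0.95), while the muscle form Pgam2 lay at -0.26 and -0.21. Pfkp, a phosphofructokinase of many tissues, lay at 0.77 (0.58 to 0.96) in the PD1 KO section and 0.72 (0.39 to 1.04) in the PD1 Het section, and the muscle form Pfkm at -0.40 and -0.19. Eno3, the muscle enolase, stood at 943 against 1409 CPM in the PD1 KO section and 1064 against 1353 CPM in the PD1 Het section, close to the course of Ldhb. Pdk4, the kinase that holds back pyruvate oxidation, stood at 145 CPM in the matrix-rich against 248 CPM in the matrix-poor bin of the PD1 KO section, a log2 ratio of -0.78 (-0.93 to -0.63), and at 26.0 against 36.3 CPM in the PD1 Het section, on 58 and 99 UMIs. Hif1a, the oxygen-regulated HIF subunit, lay at 0.62 (0.46 to 0.78) in the PD1 KO section and 0.36 (0.08 to 0.64) in the PD1 Het section. The median gene lay at 0.27 in the PD1 KO section and 0.31 in the PD1 Het section, a value that the PD1 Het interval of Hif1a includes. Of all genes tested, 22.3% and 26.0% were at least 1.5-fold higher in the matrix-rich bin, and 2.26% and 0.660% as much lower. The genes named here were chosen after earlier results were known, and no test was possible.

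The retrotransposed copies Aldoart1 and Eno1b both had more UMIs in the PD1 KO section, at 165 and 233 UMIs, against 10 and 28 UMIs in the PD1 Het section. Their parent genes Aldoa and Eno1 stood at 1351 and 56.1 CPM in the PD1 KO section, against 1350 and 101 CPM in the PD1 Het section.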
